A study of Mus musculus with 14 samples.

Results

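Voltage-gated calcium channels are named for their pore-forming alpha-1 subunit, and 8 alpha-1 subunit genes were followed through purification of Purkinje cell ribosomes in mice with and without Astn2. They are Cacna1a, Cacna1b, Cacna1c, Cacna1d, Cacna1e, Cacna1g, Cacna1h and Cacna1i, chosen by name from the 24100 genes in the count table, and all 8 were found and passed the filter on low counts in every comparison. Of the 10 alpha-1 genes of the mouse, Cacna1f and Cacna1s were not among them. Cacna1f had 8 to 24 counts in input libraries and 0 in 6 of the 7 TRAP libraries, and Cacna1s had between 31 and 105 in input, between 4 and 13 in TRAP.

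The alpha-1 subunit holds the voltage sensors, the pore and the binding sites of most channel drugs, so the gene that is expressed sets the type of current. The Cav1 genes make L-type channels, the Cav2 genes make the P/Q-, N- and R-type channels that serve much of transmitter release, and the Cav3 genes make T-type channels, which open at more negative voltages. In Purkinje cells, the output neurons of the cerebellar cortex, most calcium current passes through P/Q-type channels made from Cacna1a, and mutations of that gene cause ataxia in mice and in people.

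Cerebella were taken at postnatal day 21 from mice that carried the Tg(Pcp2-L10a-EGFP) bacTRAP transgene, which drives an EGFP-tagged ribosomal protein L10a from the Purkinje cell gene Pcp2, and that were either wild type (WT) or Astn2 knockout (KO), as littermates. In translating ribosome affinity purification (TRAP) the tagged ribosomes are captured with anti-GFP antibodies and the RNA they hold is sequenced, while a small part of the homogenate kept from before the capture is the input, labelled whole cerebellum. The 14 libraries comprised 4 input WT (1 female, 3 male), 3 input KO (2 female, 1 male), 3 TRAP WT (1 female, 2 male) and 4 TRAP KO (2 female, 2 male). Whether libraries of a group came from separate animals is not stated in the labels, so p-values measure the spread between these libraries. In bulk RNA, fewer cells of a type and less RNA per cell cannot be told apart.

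Input libraries held 25.1 to 54.2 M counts (M, 1e6), TRAP libraries 18.8 to 35.7 M. The limit that a count of 0 allows, 3 counts, came to 0.0553 to 0.160 counts per 1e6 counts (CPM). This limit was taken from library totals alone, without the TMM scaling factors used for the levels below. Astn2, the targeted gene, was at 94.5 CPM in input WT and 0.877 in input KO, and at 130 CPM in TRAP WT and 1.52 in TRAP KO, so every library matched its genotype label. All 10 Purkinje cell markers were higher in TRAP than in input and all 10 granule cell markers were lower, in both genotypes. The granule cell markers summed to 7036 to 7586 CPM in input libraries and 1109 to 2001 CPM in TRAP libraries, lower in TRAP but not near 0. TRAP WT replicate 3 and TRAP KO replicate 4 had the lowest granule sums of their groups, at 1109 and 1158 CPM, and TRAP WT replicate 3 stood apart for several members, as given below.

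The members are close relatives in sequence. The stretch that codes for the pore loop of the first of the channel's homologous repeats sets Cav3 apart from Cav1 and Cav2. It is printed below, 5′ to 3′, as 48 bases of the transcript with the longest coding sequence of each gene in GENCODE M21. Capitals mark a codon that separates Cav3 from the other families, though not the only such codon in this stretch. The loop holds a glutamate of the selectivity filter, which lets calcium through the pore, and that glutamate codon follows directly after the capitals.
Cacna1c: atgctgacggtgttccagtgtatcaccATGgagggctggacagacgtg
Cacna1d: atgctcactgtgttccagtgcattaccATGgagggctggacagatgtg
Cacna1a: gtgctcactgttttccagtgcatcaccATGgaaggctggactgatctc
Cacna1b: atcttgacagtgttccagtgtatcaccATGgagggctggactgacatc
Cacna1e: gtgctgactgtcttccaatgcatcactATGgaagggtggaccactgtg
Cacna1g: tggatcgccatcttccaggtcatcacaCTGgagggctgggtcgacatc
Cacna1h: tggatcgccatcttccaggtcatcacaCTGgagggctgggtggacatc
Cacna1i: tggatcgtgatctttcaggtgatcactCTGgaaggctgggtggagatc
The 5 high-voltage members of Cav1 and Cav2 have ATG at this codon, and the 3 Cav3 members have CTG. In these 48 bases Cacna1g and Cacna1h were identical at 47, Cacna1c and Cacna1d at 43, Cacna1a and Cacna1e at 38, and Cacna1a and Cacna1g at 31. Across Cav1 and Cav2, Cacna1b and Cacna1c were identical at 42 and Cacna1a and Cacna1d at 41, so the stretch does not separate those families. In Cacna1a the stretch lies in exon 6 of 47 on the plus strand at chr8:84523153-84523200 (GRCm38), and in Cacna1e in exon 6 of 47 on the minus strand at chr1:154633563-154633610.

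Such similarity matters for counting, because reads from a stretch that 2 genes share could be given to either. The transcripts with the longest coding sequence were compared. For each pair of members, the longest identical run is printed next where it is coding and has at least 29 bases. Counts could mix there, and also in further shared runs that are not printed. The runs of 41 bases shared by Cacna1g and Cacna1h and of 32 bases shared by Cacna1b and Cacna1c lie inside the pore loop stretch above and are not repeated.
Cacna1g and Cacna1i, 68 bases: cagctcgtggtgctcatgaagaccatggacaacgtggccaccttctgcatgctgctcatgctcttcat
Cacna1h and Cacna1i, 50 bases: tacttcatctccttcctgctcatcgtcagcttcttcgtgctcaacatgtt
Cacna1c and Cacna1d, 43 bases: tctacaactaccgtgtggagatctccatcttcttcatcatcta
Cacna1a and Cacna1b, 35 bases: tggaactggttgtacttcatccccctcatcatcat
Cacna1a and Cacna1e, 29 bases: gagtacatgatcctggccaccatcattgc
Cacna1b and Cacna1e, 29 bases: ctgctcttctttgccatcctcatgtttgc
The run shared by Cacna1g and Cacna1i lies in exon 11 of 38 of Cacna1g (chr11:94443187-94443254, minus strand) and in exon 12 of 37 of Cacna1i (chr15:80369688-80369755, plus strand). Shared runs are a small part of these transcripts. Between 97.8% (Cacna1a, Cacna1h) and 99.99% (Cacna1e) of a member's 31-base words there occurred in no other gene's transcripts. Sequence found only in other transcripts of the members was not compared. For Cacna1c the compared transcript has 6669 bases, and its longest transcript has 13162. Exons of 3 members overlap a gene on the opposite strand in that annotation, Gm16183 by 435 bases in Cacna1a, Chdh by 589 bases in Cacna1d and Tpsg1 by 158 bases in Cacna1h. Whether strand was used in counting is not given in the sources used here, so reads from these overlaps cannot be told apart.

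**Figure D1:**
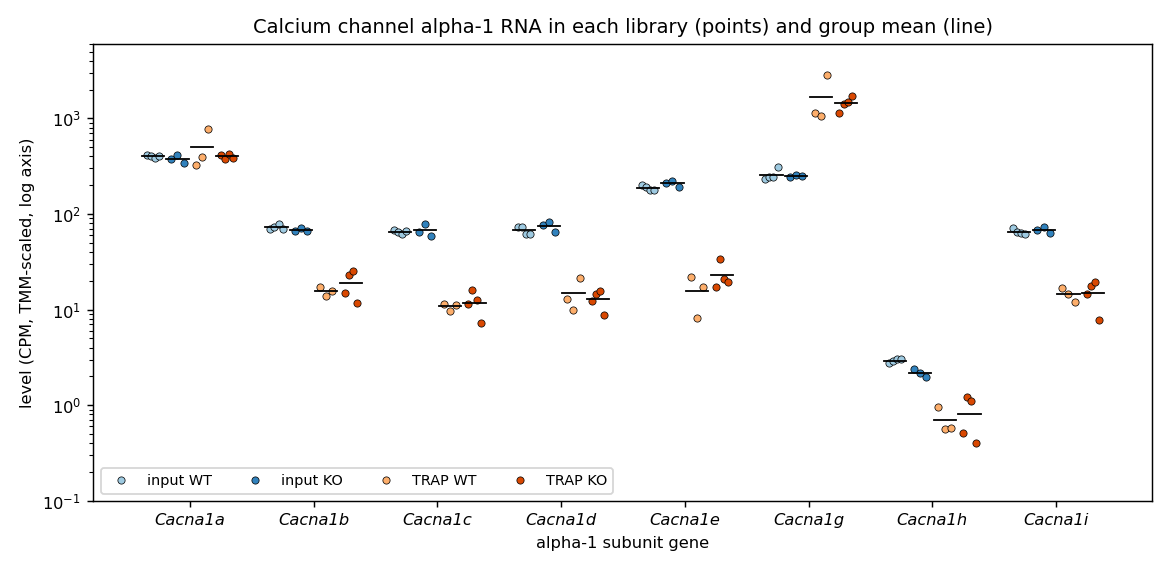
Level of each alpha-1 subunit gene in CPM (TMM-scaled, log axis) for each library (points) and the mean of each group (lines): 4 input WT, 3 input KO, 3 TRAP WT and 4 TRAP KO libraries. Cacna1g lies above input in all 7 TRAP libraries, Cacna1a overlaps between the fractions, and the other 6 genes lie below input in all 7.

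The first comparison asked which alpha-1 genes the ribosomes of Pcp2-expressing cells held relative to whole cerebellum. Of the 7 members other than Cacna1e, 1 rose in TRAP (Cacna1g), 5 fell (Cacna1b, Cacna1c, Cacna1d, Cacna1h and Cacna1i) and 1 (Cacna1a) did not pass the test, with the same outcome in WT and in KO mice (edgeR's quasi-likelihood test, Benjamini-Hochberg adjusted p under 0.05 over 16042 genes). Most genes moved between the fractions: 75.5% of all genes tested passed in WT, 37% higher and 38.5% lower, and 75.9% passed in KO, 36.3% higher and 39.6% lower. Cacna1e was placed among the members with its low TRAP level known, and its values are therefore a description. Over the 7 others, the libraries of the fractions did not overlap for 6 in either genotype, where 72.6% of all genes tested did not in WT and 78% in KO. The median over these 7 of the log2 fold change, TRAP over input, was -2.18 for WT mice (all genes tested, -0.088) and -1.86 for KO mice (all genes, -0.11).

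Among the Cav2 genes, Cacna1a (Entrez 12286, chr8:84338631-84640251), which makes the P/Q-type channel, was measured at 410, 407, 388 and 402 CPM in input WT and at 375, 413 and 337 CPM in input KO. In TRAP it was at 328, 395 and 766 CPM in WT and at 419, 375, 425 and 384 CPM in KO. The fractions overlapped in both genotypes, and TRAP WT replicate 3 was the one library far above the rest, at 2.12 times the mean of the other TRAP WT libraries. The log2 fold change of TRAP over input was 0.30 ± 0.21 (SE) in WT, with an adjusted p of 0.21 from edgeR, and 0.07 ± 0.21 in KO, with an adjusted p of 0.77. The 95% interval ran from -0.15 to 0.75 for WT mice and from -0.39 to 0.53 for KO mice.

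The sign for Cacna1a depended on how libraries were put on a common scale. With library totals in place of TMM factors, which moves the median of all genes to -0.91 in WT and -0.85 in KO, it was -0.52 in WT (edgeR adjusted p = 0.035) and -0.67 in KO (edgeR adjusted p = 0.010), above that median in both. With an offset for transcript length in each library it was 1.00 in WT (edgeR adjusted p = 0.00030) and 0.82 in KO (edgeR adjusted p = 0.0019). Without TRAP WT replicate 3 the value in WT was -0.18, without TRAP WT replicate 1 it was 0.55 (edgeR adjusted p = 0.025), and without input KO replicate 3 the value in KO was -0.075. No direction is therefore given for Cacna1a between the fractions.

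Cacna1b (Entrez 12287, chr2:24603860-24763200), which makes the N-type channel of many presynaptic terminals, was measured at 69.5, 73.3, 78.7 and 69.6 CPM in input WT and at 66.8, 72.1 and 66.5 CPM in input KO. The TRAP libraries gave 17.4, 13.8 and 15.6 CPM in WT and 14.9, 22.9, 25.6 and 11.8 CPM in KO. No TRAP library reached the input range, and the log2 fold change was -2.23 ± 0.22 in WT (edgeR adjusted p = 6.9e-07) and -1.86 ± 0.21 in KO (edgeR adjusted p = 2.1e-06).

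Cacna1e (Entrez 12290, chr1:154390806-154884785), which makes the R-type channel, was the member with the lowest TRAP to input ratio. It was measured at 202, 194, 180 and 177 CPM in input WT and at 210, 224 and 193 CPM in input KO. In TRAP it was at 21.9, 8.10 and 17.1 CPM in WT and at 17.4, 34.0, 21.1 and 19.5 CPM in KO, so that every TRAP library was far below every input library. Its mean in TRAP was 8.35% of that in input in WT and 11.0% in KO, and the log2 fold change was -3.64 ± 0.27 (SE) in WT and -3.14 ± 0.24 in KO. Of all genes tested, 1.25% had a log2 fold change as low or lower in WT and 1.44% in KO.

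The level of Cacna1e was also set beside the granule cell markers, since the 10 markers fell by a median of 2.33 on the log2 scale in WT mice and of 2.12 in KO mice. In percent of the summed CPM of those markers in the same library, Cacna1e was at 2.52 to 2.66 in input WT and 2.60 to 2.99 in input KO, and at 0.474 to 1.54 in TRAP WT and 1.06 to 1.70 in TRAP KO. These values of Cacna1e are a description, like its fold change. Relative to the same markers Cacna1d was at 0.861 to 1.10 in input KO and 0.729 to 0.780 in TRAP KO, without overlap, and at 0.877 to 0.980 in input WT and 0.579 to 1.93 in TRAP WT, with overlap. For Cacna1b the same percentage was 0.916 to 1.12 in input WT and 0.807 to 1.41 in TRAP WT, and for Cacna1i 0.882 to 0.935 and 0.859 to 1.09, and these ranges overlapped between the fractions. The part of granule cell RNA in the TRAP levels of these genes was not tested.

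The T-type gene Cacna1g (Entrez 12291, chr11:94408391-94474400), whose channel Cav3.1 supports burst firing in several neuron types, was the one member to rise in TRAP. It was measured at 232, 246, 244 and 308 CPM in input WT and at 244, 255 and 248 CPM in input KO. In TRAP it was at 1147, 1049 and 2843 CPM in WT and at 1151, 1429, 1474 and 1699 CPM in KO. Every TRAP library lay above every input library in both genotypes. The mean was 6.53 times that of input in WT and 5.77 times in KO, and the log2 fold change was 2.71 ± 0.26 (SE, edgeR adjusted p = 4.7e-07) and 2.46 ± 0.28 (edgeR adjusted p = 2.6e-06). Of all genes tested, 3.34% had a log2 fold change as high or higher in WT and 3.76% in KO. TRAP WT replicate 3 was at 2.59 times the mean of the other TRAP WT libraries, and without it the log2 fold change in WT was 2.1.

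The other T-type genes went the opposite way. Cacna1i (Entrez 239556, chr15:80287238-80398292), known from the thalamic reticular nucleus, was at 70.9, 65.3, 63.9 and 62.1 CPM in input WT and at 16.7, 14.7 and 12.1 CPM in TRAP WT, a log2 fold change of -2.20 ± 0.23 (edgeR adjusted p = 9.0e-07). In KO it was at 68.4, 72.3 and 63.6 CPM in input and at 14.4, 17.6, 19.4 and 7.74 CPM in TRAP, a log2 fold change of -2.17 ± 0.21 (edgeR adjusted p = 5.7e-07). The fractions did not overlap in either genotype.

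Cacna1h (Entrez 58226, chr17:25374285-25436334), known from sensory neurons, was the rarest member. It had 94 to 156 counts in input libraries and 9 to 35 in TRAP libraries, that is 2.75 to 3.05 CPM in input WT, 1.96 to 2.37 in input KO, 0.563 to 0.957 in TRAP WT and 0.398 to 1.23 in TRAP KO. It fell by 2.12 ± 0.34 on the log2 scale in WT (edgeR adjusted p = 7.6e-05) and by 1.39 ± 0.31 in KO (edgeR adjusted p = 0.0010). In KO the call was lost with the transcript length offset, where the log2 fold change was -0.62 (edgeR adjusted p = 0.095).

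Both L-type genes fell. Cacna1c (Entrez 12288, chr6:118587240-119197384), whose channel Cav1.2 serves heart, vessel wall and neurons, was at 68.7, 64.6, 62.2 and 66.0 CPM in input WT and at 11.6, 9.57 and 11.3 CPM in TRAP WT. In KO it was at 65.2, 77.7 and 58.9 CPM in input and at 11.5, 16.2, 12.6 and 7.17 CPM in TRAP. The TRAP mean was 16.5% of the input mean in WT and 17.6% in KO, with log2 fold changes of -2.62 ± 0.19 (edgeR adjusted p = 2.9e-08) and -2.47 ± 0.17 (edgeR adjusted p = 2.8e-08). The fractions did not overlap in either genotype.

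Cacna1d (Entrez 12289, chr14:30039941-30491156), whose channel Cav1.3 opens at more negative voltages than Cav1.2, was at 72.3, 72.6, 61.8 and 62.4 CPM in input WT and at 13.0, 9.90 and 21.4 CPM in TRAP WT. In KO it was at 76.6, 81.9 and 64.0 CPM in input and at 12.2, 14.5, 15.6 and 8.85 CPM in TRAP. TRAP WT replicate 3 was again high, at 1.87 times the mean of the other TRAP WT libraries, and still below all input libraries. The log2 fold change was -2.18 ± 0.24 in WT (edgeR adjusted p = 2.0e-06) and -2.52 ± 0.23 in KO (edgeR adjusted p = 3.2e-07).

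The sizes of these changes, though not their directions, depended on the scaling. With library totals, at the lower end, and with transcript length offsets, at the upper, the log2 fold change in WT was -3.05 and -1.34 for Cacna1b, -3.44 and -1.52 for Cacna1c, -3.00 and -1.32 for Cacna1d, -4.46 and -2.49 for Cacna1e, 1.89 and 3.44 for Cacna1g, -2.93 and -1.37 for Cacna1h and -3.02 and -1.30 for Cacna1i. In KO Cacna1e ranged between them from -3.86 to -1.90, and Cacna1g from 1.73 to 3.26.

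**Figure D2:**
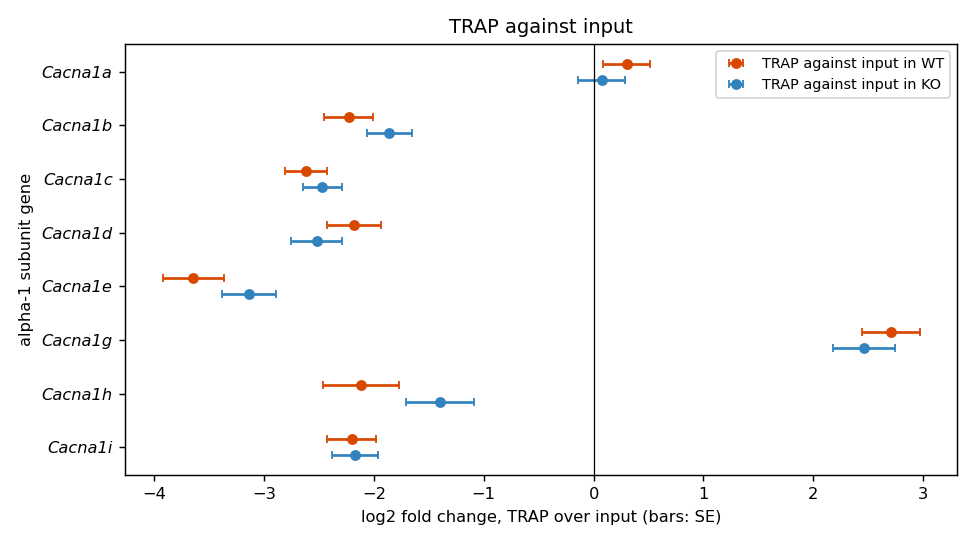
Log2 fold change of TRAP over input for the 8 genes in WT (orange) and KO (blue), with bars of 1 SE from edgeR. Cacna1g lies right of 0 in both genotypes, Cacna1a lies at 0.30 and 0.07 with a sign that depends on the scaling between libraries, and the other 6 genes lie left of 0; for Cacna1e, chosen with its TRAP level known, the points are a description.

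Library differences within TRAP were shared among members. In TRAP WT replicate 3, Cacna1a, Cacna1d and Cacna1g were 1.87 to 2.59 times the mean of the other TRAP WT libraries, while Cacna1b, Cacna1c and Cacna1e were 0.999 to 1.14 times and Cacna1h and Cacna1i 0.764 and 0.768 times. The Purkinje markers summed to 91927 CPM in that library and to 84084 and 87420 CPM in the other TRAP WT libraries. It also had the steepest tilt of counts with transcript length, a slope of 0.092 log2 units for each doubling of length. Slopes were taken relative to the mean of the library's own group, so those within a group offset each other. In TRAP WT replicate 2 the slope was -0.083. In TRAP KO replicate 4, Cacna1b, Cacna1c, Cacna1d, Cacna1h and Cacna1i each had the lowest value of the group and Cacna1g the highest. The part of these library features in the members' levels was not tested.

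To compare one gene with another, CPM was divided by the length in kilobases (kb) of the longest annotated transcript of each gene, which for Cacna1d is one marked for nonsense-mediated decay. In input WT the order of these levels was Cacna1a (50.7 ± 1.23 CPM per kb, SD, n = 4), Cacna1g (30.7 ± 4.10), Cacna1e (12.6 ± 0.772), Cacna1b (7.47), Cacna1d (6.97), Cacna1i (6.70), Cacna1c (4.97) and Cacna1h (0.356). The ranges of Cacna1b and Cacna1d overlapped, as did those of Cacna1d and Cacna1i, and all other neighbours in this order were apart. Input KO had the same order except among those 3. In TRAP WT the order began with Cacna1g (200 ± 120, SD, n = 3) and Cacna1a (62.6 ± 29.8), followed by Cacna1b (1.60), Cacna1d (1.53), Cacna1i (1.48), Cacna1e (1.05) and Cacna1c (0.821), which overlapped from one to the next, and Cacna1h (0.0851). In TRAP KO Cacna1g (172 ± 26.9, SD, n = 4) and Cacna1a (50.6 ± 3.15) again led, well apart from each other and from the rest. Cacna1e, next after Cacna1g in input, stood among the overlapping low genes in TRAP of both genotypes. Divided by coding length instead, an alternative chosen after seeing the data, Cacna1e was at 27.6 CPM per kb in input WT, 30.6 in input KO and 3.37 in TRAP KO, and in TRAP of both genotypes it then led the low genes while still overlapping the next. Cacna1c, at 9.81 in input WT by that length, then overlapped Cacna1i.

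As a share of the summed alpha-1 RNA of a library, a measure that does not depend on the scaling between libraries, Cacna1a took 42.1% ± 0.999 in input WT (SD, n = 4) and 40.0% ± 1.13 in input KO (n = 3), and 23.9% ± 3.24 in TRAP WT (n = 3) and 22.3% ± 3.40 in TRAP KO (n = 4). Cacna1g took 25.4% ± 2.81 and 25.2% ± 1.52 in input and 73.3% ± 3.60 and 74.5% ± 3.84 in TRAP. The leading gene thus changed from Cacna1a in input to Cacna1g in TRAP, in all 14 libraries. The sum itself, with TMM scaling, was 120 ± 3.48 CPM per kb in input WT and 118 ± 8.64 in input KO (SD). In TRAP it was 270 ± 150 in WT and 229 ± 25.0 in KO, so a lower share need not mean a lower level. Cacna1e went from 10.5% ± 0.722 in input WT and 11.9% ± 0.108 in input KO to 0.451% ± 0.297 in TRAP WT (n = 3) and 0.675% ± 0.222 in TRAP KO (n = 4). Its share depended on the length used: by coding length it was 17.1% and 19.1% in input and 0.840% and 1.25% in TRAP, for WT and KO. Without TRAP WT replicate 1, which was at 0.793%, the share in TRAP WT was 0.280%. These shares of Cacna1e are a description, like its fold change.

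The shares of the families moved accordingly. Cav3 took 29.3% to 34.8% of the alpha-1 sum in input WT, 30.0% to 33.1% in input KO, 70.3% to 76.9% in TRAP WT and 70.6% to 79.5% in TRAP KO. Cav2 took 56.0% to 60.2% and 56.8% to 58.7% in input, and 22.4% to 28.7% and 19.9% to 28.3% in TRAP. The L-type Cav1 genes took 9.20% to 10.6% and 10.1% to 11.3% in input and 0.571% to 1.21% over both TRAP groups. The Cav3 share in TRAP was nearly all Cacna1g, and the Cav2 share nearly all Cacna1a.

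**Figure D3:**
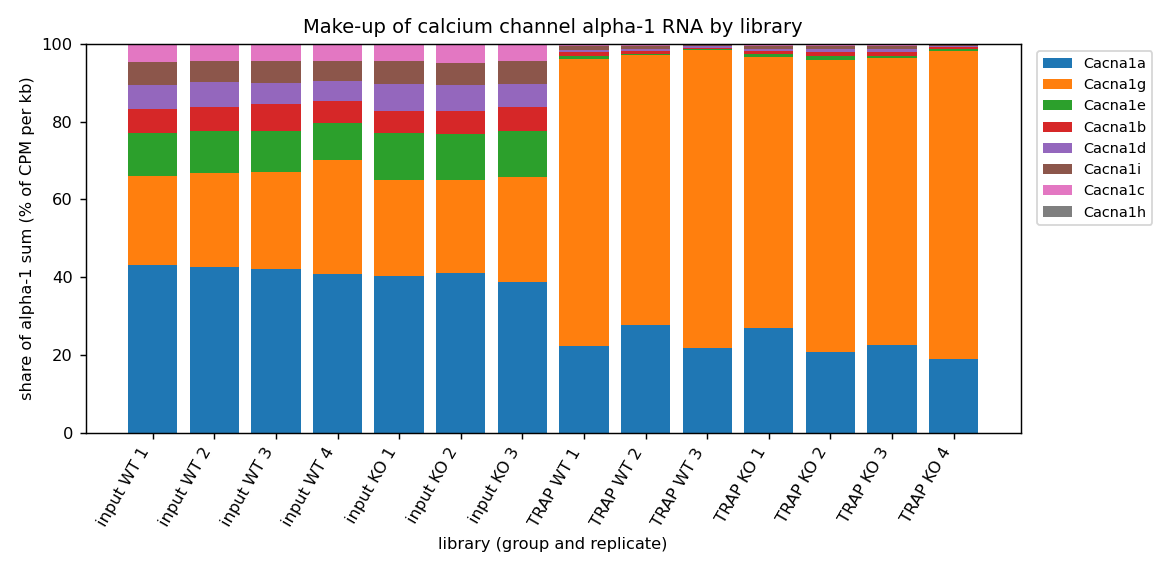
Share of each gene in the summed alpha-1 RNA of each library, in percent of CPM per kb, with 1 stacked bar per library. Cacna1a (blue) is the largest part in the 7 input libraries and Cacna1g (orange) in the 7 TRAP libraries, where Cacna1e (green) shrinks to between 0.259% and 1.00%. For Cacna1e, chosen with its TRAP level known, the shares are a description.

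Ratios of 2 members within a library are free of the same scaling. Cacna1g per kb was 0.534 to 0.724 times Cacna1a in input WT and 0.585 to 0.695 times in input KO, and 2.51 to 3.51 times in TRAP WT and 2.60 to 4.18 times in TRAP KO. Cacna1a per kb was 3.83 to 4.27 times Cacna1e in input WT and 3.29 to 3.47 times in input KO, and 28.1 to 91.7 times in TRAP WT and 20.8 to 45.4 times in TRAP KO. The ratio of Cacna1a to Cacna1e is a description, since Cacna1e was chosen with its low TRAP level known. The size of that ratio rests on the length given to Cacna1e. By coding length it was 1.95 to 2.18 in input WT, 1.68 to 1.77 in input KO, 14.3 to 46.8 in TRAP WT and 10.6 to 23.2 in TRAP KO. TRAP WT replicate 3, which had high levels of both Cacna1a and Cacna1g, lay within the range of the other TRAP libraries for the first ratio.

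The second comparison asked whether loss of Astn2 changed alpha-1 RNA on Purkinje cell ribosomes or in whole cerebellum, and no member passed the test in either. In TRAP 0 of 8 members passed, where 0.00707% of the 14145 genes tested did, and in input 0 of 8, where 0.0188% of 15997 did (edgeR's quasi-likelihood test with sex as covariate). With DESeq2 0 of 8 members passed as well in both fractions, where 292 of 15997 genes passed in input and 3 of 14145 in TRAP. In input, 1 member, Cacna1h, had an unadjusted edgeR p under 0.05, as had 2198 of the 15997 genes tested. In TRAP 0 members had, against 212 of the 14145 genes tested. The median log2 fold change of KO over WT over the 8 members was 0.025 in TRAP and -0.039 in input, against 0.0018 and -0.0085 over all genes tested.

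In TRAP the log2 fold change of Cacna1a was -0.21 ± 0.27 (SE) with a 95% interval from -0.83 to 0.42, and that of Cacna1g was -0.10 ± 0.32 with an interval from -0.84 to 0.63. Without TRAP WT replicate 3 both signs turned, to 0.16 and 0.39. Cacna1e had the largest difference, 0.50 ± 0.32, with an interval from -0.22 to 1.23 (edgeR adjusted p = 1.00). Libraries of the genotypes did not overlap in TRAP for 4.49% of all genes tested and for 0 of the 8 members, and the 7 TRAP libraries could not show a difference smaller than about these intervals. For Cacna1b, Cacna1c, Cacna1d, Cacna1h and Cacna1i the log2 fold changes lay between -0.20 and 0.26, and the interval of Cacna1h was the widest, from -0.99 to 1.31.

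The intervals were narrower in input. Cacna1a was at a mean of 402 ± 9.77 CPM in WT (SD, n = 4) and 375 ± 37.7 in KO (SD, n = 3), a log2 fold change of -0.17 ± 0.076 with an interval from -0.34 to 0.0026 (edgeR adjusted p = 0.37). Cacna1g differed by -0.017 ± 0.11, with an interval from -0.27 to 0.24, and Cacna1e by 0.072 ± 0.065, with an interval from -0.075 to 0.22. Cacna1b, Cacna1c, Cacna1d and Cacna1i lay between -0.096 and 0.029. Each of these groups of libraries overlapped between the genotypes.

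Cacna1h was the exception in input, where its 3 KO libraries (2.37, 2.18 and 1.96 CPM) all lay below its 4 WT libraries (2.75, 2.90, 3.05 and 3.01 CPM). Of all genes tested in input, 10.3% had no overlap between the genotypes and 4.24% were lower in KO without overlap. The log2 fold change was -0.47 ± 0.16 with an interval from -0.83 to -0.11, and an adjusted p of 0.27 from edgeR at an unadjusted p of 0.015, so it did not pass. The lowest adjusted p under the alternatives was 0.18, and the highest 1.00. Counts for this gene were 94 to 156 in the input libraries.

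**Figure D4:**
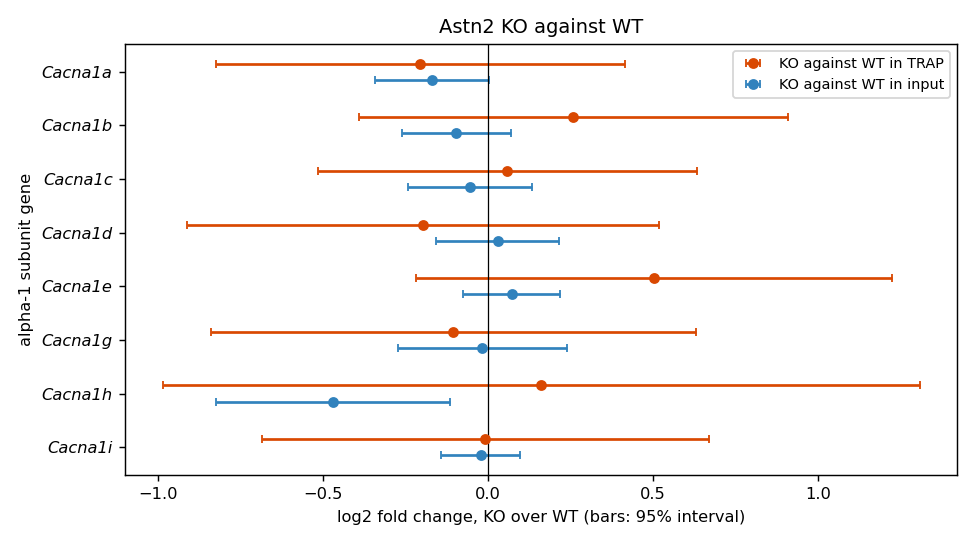
Log2 fold change of KO over WT for the 8 genes in TRAP (orange) and in input (blue), with 95% intervals from edgeR. All intervals include 0 except that of Cacna1h in input, from -0.83 to -0.11, which did not pass after adjustment over all genes.

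The change with genotype was also compared between the fractions. For 0 of 8 members did the genotype difference differ between TRAP and input (edgeR interaction, adjusted p under 0.05), as for 0% of the 16042 genes. An unadjusted p under 0.05 was found for 430 genes, none of them a member, and DESeq2 called 1 gene, which was no member. The interaction was 0.51 ± 0.34 for Cacna1e and 0.72 ± 0.47 for Cacna1h on the log2 scale, the largest among the members, and -0.23 ± 0.30 for Cacna1a and -0.24 ± 0.36 for Cacna1g.

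The partners of the channels were described from lists written with results of these data known. Auxiliary beta and alpha2delta subunits bring Cav1 and Cav2 channels to the membrane and tune their gating. Of 8 tested among 10 listed, 2 rose in TRAP WT, 5 fell and 1 did not pass (edgeR), with a median log2 fold change of -0.69 against -0.088 over all genes. Of all genes tested in WT, 75.5% passed, 37% higher and 38.5% lower. Cacnb2 had the highest value, 2.80 ± 0.25 (42.5 CPM in input WT and 295 in TRAP WT), and Cacna2d1, a target of gabapentin, the lowest, -3.07 ± 0.19 (47.7 and 5.72 CPM). Chosen after their values were seen, the other subunit that rose was Cacna2d2, at 1.58 ± 0.13, and the one that did not pass was Cacnb4, at 0.26 ± 0.16, the genes mutated in the ataxic ducky and lethargic mice. The counts in KO were the same.

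Calcium-activated potassium channels turn calcium entry into hyperpolarization. Of 7 tested among 8 listed, 2 rose in TRAP WT, 2 fell and 3 did not pass, in KO likewise, where 75.5% of all genes passed in WT and 75.9% in KO. The median log2 fold change was 0.14 in WT and -0.040 in KO, against -0.088 and -0.11 over all genes. The BK channel subunit Kcnmb4 had the highest value, 2.78 ± 0.17, and the SK channel gene Kcnn3 the lowest, -2.94 ± 0.39 (edgeR adjusted p = 4.4e-09 and 1.1e-05). Chosen after their values were seen, Kcnma1, the BK channel pore, rose by 1.50 ± 0.19 and Kcnmb2 was the other one that fell.

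For calcium release and refilling of stores, 5 of 12 genes rose in TRAP WT, 6 fell and 1 did not pass, and in KO 5 rose, 5 fell and 2 did not, where 75.5% of all genes passed in WT and 75.9% in KO. The median was -0.44 in WT and -0.12 in KO (all genes, -0.088 and -0.11). Atp2a3, a calcium pump of the endoplasmic reticulum, was highest at 3.27 ± 0.25 (219 CPM in input WT and 2099 in TRAP WT), and Itpr3, an IP3 receptor, lowest at -2.50 ± 0.30. For calcium buffers and sensors, 8 of 12 rose and 4 fell in each genotype, where 37% of all genes rose in WT and 36.3% in KO, and the median was 1.36 in WT and 1.32 in KO. Values in WT ran from Camk4 at -2.18 ± 0.14 to the buffer parvalbumin (Pvalb) at 4.10 ± 0.35. The presynaptic scaffold and release partners had 1 of 12 that rose, 10 that fell and 1 that did not pass in each genotype. Of all genes, 38.5% fell in WT and 39.6% in KO. The median of these partners was -1.58 in WT and -1.66 in KO, against -0.088 and -0.11 over all genes. The lowest was Rims1 at -2.77 ± 0.33 and the one that rose was Erc2 at 0.77 ± 0.13. In none of the 5 lists did any gene pass for genotype in TRAP, in input or in the interaction.

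The genes whose levels followed 3 members most closely over the 14 libraries were found among 5945 genes with a mean log2(CPM + 1) of at least 5. For Cacna1g they were Grik1, Lrfn5 and Nomo1, with Pearson's r of 0.998, 0.997 and 0.997, and for Cacna1e they were Spen, Hectd4 and Atf7ip, with r of 0.997, 0.995 and 0.992. The closest to Cacna1a were Slc39a10, AU040320 and Lmtk2, with r of 0.942, 0.933 and 0.926. All of these points share their libraries, and for Cacna1g and Cacna1e they fall into an input and a TRAP cluster, so r mostly restates the difference between the fractions. For Cacna1a, TRAP WT replicate 3 stood at 766 CPM and all other libraries at 328 to 425 CPM. The part of that library in r was not tested.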

How the data were processed

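The deposited values were whole-number read counts by Entrez gene for 14 libraries, and per the file headers no normalization is named. Salmon 0.8.2 and the build mm10 are named in the submitters' processing notes without a role. The counting step, the annotation and the strand setting are not given in the sources used here. If the counts came from Salmon, shared reads were divided between genes by estimation. Of 24100 genes, 2930 had 0 counts in every library and 24045 had a symbol in the RefSeq table of assembly GRCm38.p6, which also gave gene positions. Sequences, exons and transcript lengths came from GENCODE release 21 for mouse (GRCm38).

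Groups, sex and replicate numbers followed the labels. CPM used TMM factors over the 14 libraries, and a level per kb divided it by the longest transcript. Tests were edgeR 4.0.16 (R 4.3.3) quasi-likelihood F tests, two-sided, with filterByExpr and Benjamini-Hochberg adjustment over all genes at 0.05. TRAP against input and the interaction used all 14 libraries with group means and sex, and the genotype tests used the 7 libraries of a fraction with sex. The SE is the absolute log2 fold change over the root of F. The fits were tested on simulated data in which every gene had the same dispersion and few genes changed. In the real data most genes changed between the fractions. Between libraries of a group, chi-square per degree of freedom was 8.63 to 267, so they differed by more than counting error. Each library was counted as 1 replicate, though this does not show that libraries came from separate animals.

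The 8 members, the lists and the tests were chosen with earlier results of these data known. The named genes are the members, Astn2, the other alpha-1 genes, the highest and lowest gene of each list in TRAP against input in WT, and the 3 genes most like Cacna1a, Cacna1e and Cacna1g. The alternatives were DESeq2 1.42.0 size factors, library totals, no filter, the DESeq2 Wald test, no sex covariate, loess offsets on transcript length (span 0.3), a replicate block, all 14 libraries in one fit, and each library left out. The intervals came from the edgeR fits and measure the spread between these libraries, while the limit of 3 counts covers counting error only.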

Additional observations from a re-analysis of the deposited data

Results flagged for a closer look

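For the level and the share of the alpha-1 sum of each member in the groups of 4 libraries, 32 sets of values in all, 4 had a library far from the others by Dixon's ratio of gap to range, against a critical value of 0.829. Chance alone gives about 1 in 20 such sets. The sets are not independent, since levels and shares come from the same genes and the shares of a library depend on each other. The number of flags is therefore not compared with that rate. The share of Cacna1c in input WT replicate 1 was 4.34%, where the other 3 libraries had 4.02% to 4.07% (ratio 0.846). The share of Cacna1d in TRAP KO replicate 4 was 0.358% against 0.641% to 0.678% in the others (ratio 0.885), and that of Cacna1i in the same library was 0.309% against 0.751% to 0.833% (ratio 0.843). The share of Cacna1e in TRAP KO replicate 2 was 1.00% against 0.511% to 0.594% (ratio 0.831). TRAP KO replicate 4 also had the lowest granule marker sum of its group, and the part of this in its shares was not tested.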

How the results depend on the processing

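Between TRAP and input, Cacna1b, Cacna1c, Cacna1d, Cacna1g and Cacna1i kept their direction and stayed past the threshold under all 21 alternatives in each genotype, and Cacna1h under 21 in WT and 20 in KO. Of the 7 members other than Cacna1e, 6 to 7 were past the threshold in WT and 6 in KO with each library left out, and 7 with library totals. Over all genes, 11556 to 12350 passed in WT and 11282 to 13052 in KO with a library left out. With library totals, 12936 of 16042 genes passed in WT and 12802 in KO. Cacna1a also passed with length offsets in both genotypes. Cacna1a turned with library totals to -0.52 in WT and -0.67 in KO, and ranged with a library left out from -0.18 to 0.55 and from -0.075 to 0.17; the cause was not tested.

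For genotype no member passed under any alternative. Signs that turned, on the log2 scale, were in TRAP Cacna1c with length offsets (-0.011) and Cacna1i with library totals (0.053) and without sex (0.037). In input they were Cacna1c (0.027) and Cacna1i (0.040) without sex, Cacna1d (-0.076) and Cacna1e (-0.073) with length offsets, and Cacna1g with all 14 libraries in one fit (0.090). The interaction of Cacna1i was -0.022 without sex. With a library left out, ranges that crossed 0 in TRAP were -0.50 to 0.16 for Cacna1a, -0.094 to 0.47 for Cacna1b, -0.13 to 0.27 for Cacna1c, -0.40 to 0.17 for Cacna1d, -0.36 to 0.39 for Cacna1g, -0.30 to 0.42 for Cacna1h and -0.41 to 0.24 for Cacna1i. In input they were -0.18 to 0.020 for Cacna1b, -0.15 to 0.077 for Cacna1c, -0.065 to 0.15 for Cacna1d, -0.13 to 0.13 for Cacna1g and -0.034 to 0.0085 for Cacna1i. For the interaction they were -0.44 to 0.26 for Cacna1a, -0.022 to 0.29 for Cacna1c, -0.53 to 0.13 for Cacna1d, -0.49 to 0.38 for Cacna1g and -0.18 to 0.20 for Cacna1i.

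Over all genes, the count past the threshold was 1 for the interaction with DESeq2. In TRAP it was 2 with all 14 libraries, 3 with DESeq2 and 1 to 2 with a library left out. In input, where it was 3, it was 5 with size factors, 292 with DESeq2, 23 with no filter and 1 to 158 with a library left out, the 158 without input KO replicate 2. The share of Cacna1a was 35.1% in input WT and 32.9% in input KO by coding length, and 35.8% and 33.6% with no division by length. That of Cacna1g was 22.3% and 21.8% by coding length and 22.4% in input KO with no division.

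Replicate numbers were tested as a block, with 12 libraries for the fraction contrasts. Same-numbered deviations correlated at -0.13 to 0.29 between input and TRAP and at -0.20 to 0.14 between genotypes, not above 0.1 in every pair, so the numbers were not taken as pairs. Same-numbered input and TRAP libraries of a genotype had the same sex, 4 of their 6 correlations were 0.23 to 0.29, and whether they came from the same mouse is not given in the sources used here. With the block no member's call changed, 1 gene passed for genotype in input, and in TRAP Cacna1d was at 0.0032 and Cacna1i at 0.25, and in input Cacna1c at 0.030, Cacna1g at 0.044 and Cacna1i at 0.021.

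Depth limits Cacna1h most, with 9 to 35 counts in TRAP.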
